A study of Mus musculus with 10 samples.

Results

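The genes described here encode the unfolded protein response and the integrated stress response. They were taken as the rows of the deposited count table whose symbol equals 1 of 40 listed names, and all 40 names were found among 19764 rows. Of these genes, 38 had enough counts to be tested: 9 of 9 sensors and regulators, 14 of 14 endoplasmic reticulum (ER) chaperones and folding enzymes, 4 of 4 genes of ER-associated degradation, and 11 of 13 genes of the ATF4 branch. Polyadenylated RNA of whole liver had been sequenced from female mice. GRMAC mice (GRflox; LysM-Cre+/-) carried floxed glucocorticoid receptor alleles and 1 copy of LysM-Cre. GRflox mice were littermates with the floxed alleles and no Cre. Both genotypes had been fasted for 8 h from ZT12, when mice begin their active period, and there were 5 libraries of each. LysM-Cre is active in macrophages, including Kupffer cells of the liver, and in other myeloid cells such as neutrophils, so the hepatocytes that give most of the RNA were not its target. Since GRflox mice carried no Cre, effects of the Cre allele and of the lost receptor cannot be told apart, and livers of fed mice were not analysed here. The ages of the mice are not given in the sources used here. The labels number the libraries without saying that each is a separate animal, so the p-values measure only the spread between these libraries.

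Unfolded protein in the ER is sensed by 3 membrane proteins: IRE1, PERK and ATF6, encoded by Ern1, Eif2ak3 and Atf6. IRE1 splices the Xbp1 message, and spliced XBP1 and cleaved ATF6 switch on genes for chaperones, folding enzymes and the degradation of misfolded proteins. PERK phosphorylates the translation factor eIF2, as does GCN2 (encoded by Eif2ak4) when amino acids are short. Phosphorylated eIF2 slows translation as a whole while raising the translation of ATF4, which switches on genes for amino acid supply, serine and one-carbon metabolism, and cell death. The liver makes most plasma proteins, so its ER carries a heavy folding load, which changes with feeding and fasting. Splicing of Xbp1, cleavage of ATF6 and phosphorylation of PERK, GCN2 or eIF2 are not seen in a count of reads per gene.

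The promoters of these genes were searched for DNA elements through which the branches are known to act, and examples of matches are printed below. RefSeq promoters (GRCm38.p6; 250 bases before to 50 after the transcript start, 300 in all) were found for 36 of the 40 genes by symbol, and 32 of them began at the same base as the row of the count table. Both strands were searched for the ER stress element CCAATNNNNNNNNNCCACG, to which ATF6 and NF-Y bind, for the ER stress element II (ATTGG and CCACG with 1 base between them), and for TGATGNAA, the amino acid response type of site that ATF4 binds with C/EBP proteins. Capitals mark the match, which reads as the reverse complement where it lies on the other strand. The 6 genes shown are those with the lowest p in the comparison of the genotypes among the genes that hold a match upstream of their start, with 4 genes of the ER first and 2 of the ATF4 branch after them.
Hspa5: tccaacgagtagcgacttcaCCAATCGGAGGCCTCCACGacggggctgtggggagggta
Hsp90b1: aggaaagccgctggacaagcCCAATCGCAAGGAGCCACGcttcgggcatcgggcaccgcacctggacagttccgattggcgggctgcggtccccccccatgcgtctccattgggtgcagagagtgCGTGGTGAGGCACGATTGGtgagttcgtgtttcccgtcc
Creld2: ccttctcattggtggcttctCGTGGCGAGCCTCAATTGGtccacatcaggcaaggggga
Syvn1: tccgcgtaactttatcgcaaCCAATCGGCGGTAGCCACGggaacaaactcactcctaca
Chac1: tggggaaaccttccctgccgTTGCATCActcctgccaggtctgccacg
Nupr1: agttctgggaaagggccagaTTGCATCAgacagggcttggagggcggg
These stretches lie at chr2:34772005-34772063, plus strand (Hspa5), chr10:86705513-86705676, minus strand (Hsp90b1), chr15:88819500-88819558, plus strand (Creld2), chr19:6046512-6046570, plus strand (Syvn1), chr2:119351029-119351076, plus strand (Chac1) and chr7:126625553-126625600, minus strand (Nupr1), and each is written 5′ to 3′ on the strand of its gene.

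Of the 12 ER chaperone genes with a promoter, 7 held the ER stress element (Calr, Canx, Creld2, Dnajc3, Hsp90b1, Hspa5 and Pdia6), a share of 58.3%, against 26 of all 14407 promoters (0.18%). Hsp90b1 held it 2 times, at −212 to −194 and at −107 to −89 from the start. Syvn1 was the gene outside the chaperones that held it, at −44 to −26. The ER stress element II was in Dnajb11 and Herpud1, and in 6 of all promoters (0.0416%). TGATGNAA was in 5 of 13 promoters of the ATF4 branch (Asns, Atf3, Chac1, Nupr1 and Trib3; 38.5%) and in Herpud1, against 471 of all promoters (3.27%). None of the 7 sensor promoters held any of these 3 elements. The unfolded protein response element of XBP1, TGACGTGG, was in 0 of 36 promoters of these genes and in 108 of all promoters (0.75%). These matches describe letters within this window and were not tested as binding sites. The elements were searched because these branches are known to act through them, so the shares are a description and no test.

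**Figure D1:**
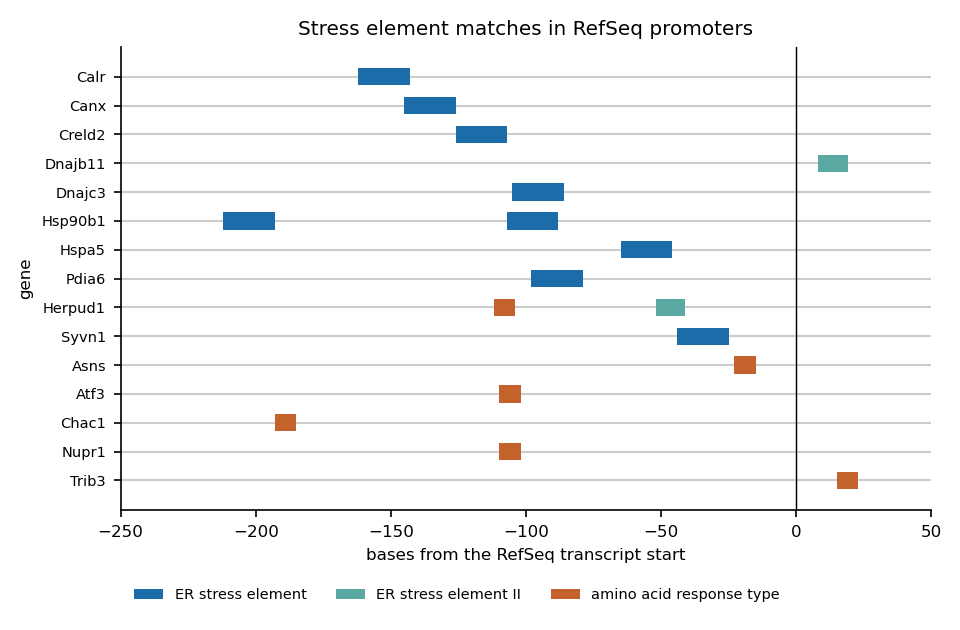
Position of each motif match in the promoters of the 15 genes that held one, in bases from the RefSeq transcript start (0). Grey lines are the 300 bases searched. ER stress elements lie between −212 and −26, and those of type II lie in Dnajb11 and Herpud1.

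The libraries held 25697931 to 27692528 counts in GRflox and 23258884 to 26116916 in GRMAC, and these totals differed between the genotypes (two-sided exact permutation test over 252 assignments, p = 0.0159, where the smallest possible is 0.00794). The dependence of the counts on GC content, taken relative to each gene's mean over the 10 libraries, differed as well. Mean slopes were 0.0354 (GRflox) and −0.0354 (GRMAC) log2 units per 10 percentage points (exact permutation test, p = 0.0159). They are equal and opposite by construction, so only the difference between the genotypes can be read from them. Levels are given as CPM, the gene's counts relative to the total of its library after scaling by the TMM method, and differences as the log2 fold change of GRMAC against GRflox. Hepatocyte markers summed to 122600 to 141700 CPM in GRflox and 121100 to 143700 CPM in GRMAC, and 10 Kupffer cell markers to 230.3 to 311.5 and 248.4 to 360.6 CPM. Cd163, a scavenger receptor, was lower in GRMAC at 2.43 to 3.77 CPM against 21.6 to 40.3 CPM in GRflox, with a log2 fold change of −3.22 ± 0.19 (SE; edgeR, adjusted p = 2.5e-05). Cd5l, a secreted macrophage protein, was at 56.0 to 88.2 against 36.4 to 54.0 CPM, with no overlap, as at 4.05% of all genes tested in either direction. Its log2 fold change was 0.55 ± 0.13 (SE; edgeR, adjusted p = 0.0928). The sums were 258.8 to 295 and 197.8 to 327.3 CPM for sinusoidal endothelial cells, 176.7 to 220.9 and 183.9 to 243.2 CPM for stellate cells, 28.1 to 36.04 and 28.9 to 50.2 CPM for cholangiocytes, and 2.60 to 4.84 and 3.18 to 5.99 CPM for neutrophils. Nr3c1, the targeted gene, was at 63.8 to 81.25 CPM in GRflox and 74.7 to 94.0 CPM in GRMAC (log2 fold change 0.18 ± 0.08 SE, adjusted p = 0.277, edgeR). A count per gene of whole liver does not show a deleted exon in myeloid cells. Among all 12558 genes tested, 22 (0.175%) passed the threshold of an adjusted p of 0.05 in edgeR's quasi-likelihood test.

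The libraries labelled GRflox 4 and GRflox 5 stood apart from the rest in the ER chaperones, and the values of genes that rest on them are given with and without these libraries. Of the 14 chaperone genes, 11 were highest of all 10 libraries in GRflox 5 and 11 were lowest of all in GRflox 4. Within the genotype, GRflox 5 was the highest for 12 of 14 and GRflox 4 the lowest for 14 of 14, whereas over all genes tested those shares were 22% and 22.2%. The median chaperone was higher in GRflox 5 than in GRflox 4 by 1.114 on the log2 scale, and the median of all genes by −0.008. A smaller difference of the same kind was seen in GRMAC, where library 2 was highest for 13 of 14 chaperones and library 4 lowest for 12 of 14, with a median log2 ratio of 0.652. Both genotypes thus held high and low libraries for the chaperones.

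**Figure D2:**
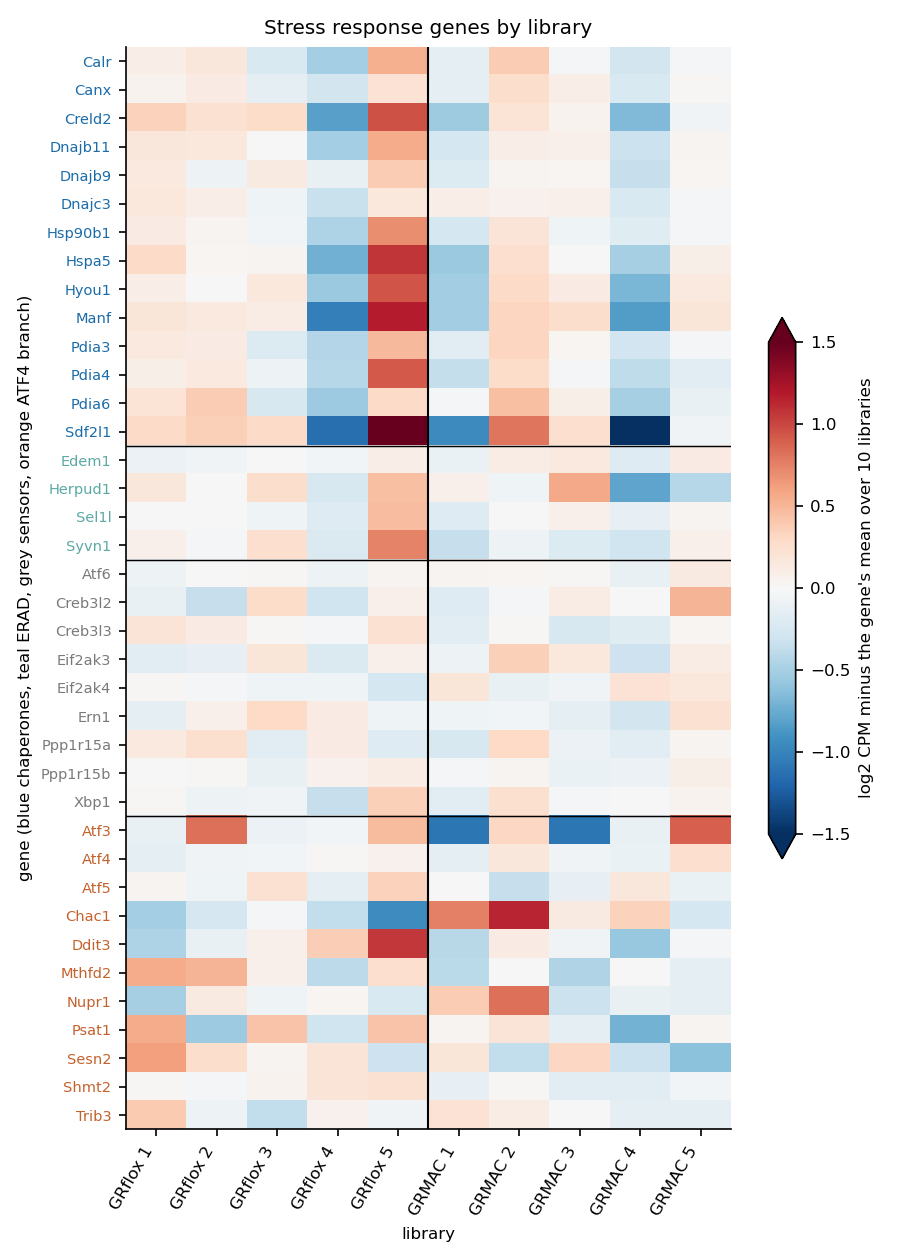
Heat map of the 38 tested genes (rows, grouped by role) in the 10 libraries (columns). Colour is log2 CPM minus the gene's mean over all libraries, so red is above and blue below that mean. Most chaperone rows are reddest in GRflox 5 and bluest in GRflox 4 or GRMAC 4, while rows of the sensors stay pale.

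None of the 38 tested genes passed with edgeR, against 0.175% of all genes, and none with limma-voom, against 0.0637%. With DESeq2 Chac1 passed (adjusted p = 0.014), against 3.63% of all genes. At an unadjusted p below 0.05 in edgeR, Chac1 was higher, against 8.58% of all genes tested, and Shmt2, Creb3l3 and Syvn1 were lower, against 7.75% of all genes. No gene of the 38 had every GRMAC library above or below every GRflox library, a pattern seen for 4.05% of all genes tested. The authors' deposited table, in which 3.33% of 12737 genes had an adjusted p below 0.05, likewise held Chac1 as the 1 gene of these past that threshold (log2 fold change 0.90, adjusted p = 0.0136). Log2 fold changes were positive for 11 and negative for 27 of the 38, with a median of −0.14, where 49.8% of all genes were negative and their median was 0.001. Without GRflox 5, 17 were positive and 21 negative, with a median of −0.02. Without both GRflox 4 and GRflox 5, 39 genes passed the filter on low counts, and 12 were positive and 27 negative, with a median of −0.10.

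**Figure D3:**
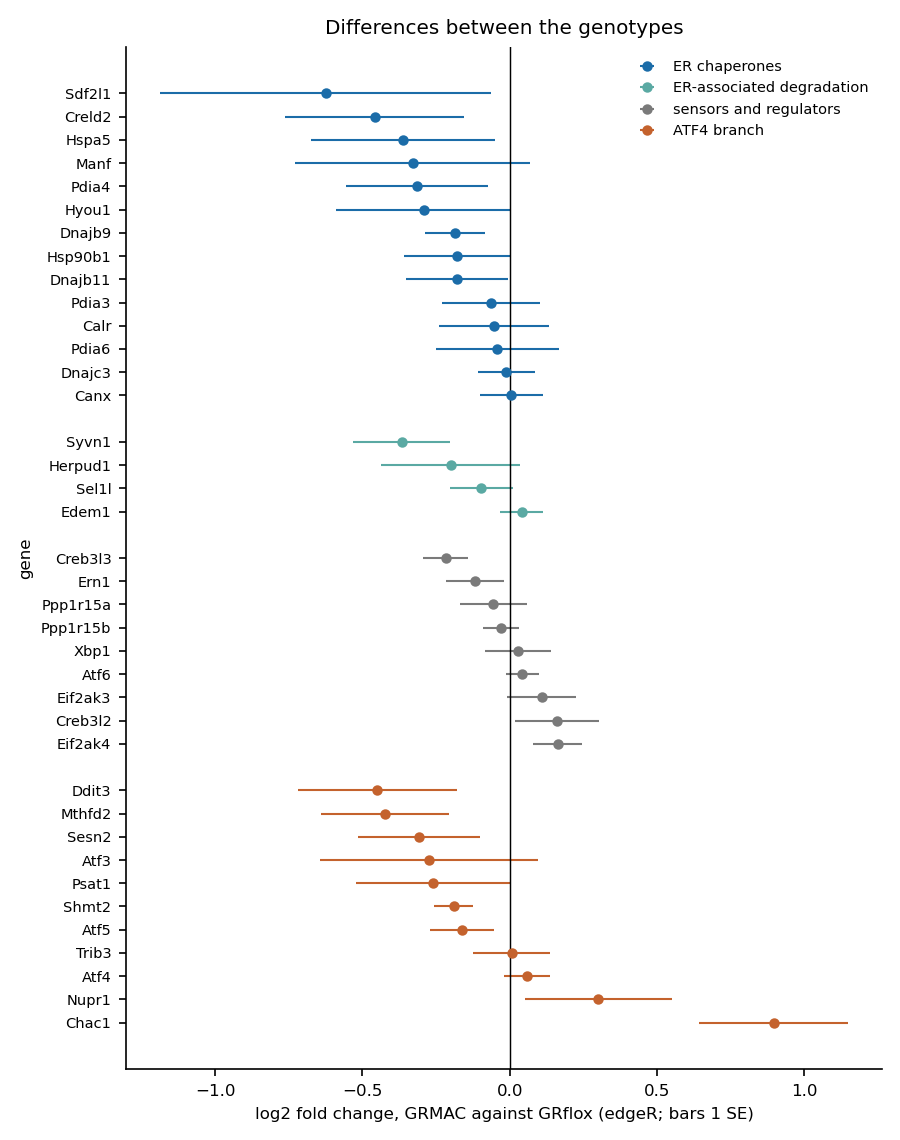
Log2 fold change of GRMAC against GRflox for each tested gene, with bars of 1 SE (edgeR, 5 libraries each), grouped by role. Chac1 (0.90) lies farthest to the right and Sdf2l1 (−0.63) farthest to the left, and chaperones with the largest negative values also have the widest bars.

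Among sensors and regulators 5 of 9 had a positive and 4 a negative log2 fold change, with a median of 0.03, and 0 of 9 passed with edgeR, DESeq2 or limma-voom. Creb3l3 was the gene of this group with an unadjusted p below 0.05. Their median was −0.02 without GRflox 4, −0.03 without GRMAC 2 and 0.06 without GRflox 5.

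Coordinates of genes are spans of the whole transcript in mm10, the build of the count table per the submitters' processing notes. Ern1 (NM_023913, chromosome 11, 106397620 to 106487796), which encodes the sensor and splicing enzyme IRE1, was at 44.2, 51.7, 60.1, 53.4 and 46.6 CPM in GRflox libraries 1 to 5 and 46.5, 47.6, 44.1, 40.5 and 57.1 CPM in GRMAC libraries 1 to 5. The ranges overlapped, with the highest value of all in GRflox 3 and the next in GRMAC 5. Its mean was 51.2 ± 6.21 CPM in GRflox and 47.2 ± 6.18 CPM in GRMAC (SD, n = 5 each), a log2 fold change of −0.12 ± 0.10 (SE; edgeR, adjusted p = 0.588). Eif2ak3 (NM_010121, chromosome 6, 70844527 to 70905240), the gene of the sensor kinase PERK, was at 17.3, 17.8, 21.95, 16.6 and 20.5 CPM in GRflox libraries 1 to 5 and 18.4, 24.8, 21.7, 15.6 and 20.98 CPM in GRMAC libraries 1 to 5. GRMAC held both the highest and the lowest of these values. Means of 18.8 ± 2.26 CPM in GRflox and 20.3 ± 3.47 CPM in GRMAC gave a log2 fold change of 0.11 ± 0.12 (SE; edgeR, adjusted p = 0.695). Atf6 (NM_001081304, chromosome 1, 170704457 to 170867771) encodes the sensor that is cleaved in the Golgi to release a transcription factor. Its values were 99.2, 104, 106, 99.3 and 107 CPM in GRflox libraries 1 to 5 and 108, 107, 105, 96.8 and 114 CPM in GRMAC libraries 1 to 5. They were the most even of the 38 genes in GRflox, with the highest library 1.08 times the lowest, and gave a log2 fold change of 0.04 ± 0.05 (SE; edgeR, adjusted p = 0.743).

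Xbp1 (NM_013842, chromosome 11, 5520641 to 5525993), the transcription factor gene whose message IRE1 splices, was at 162, 152, 155, 126 and 205 CPM in GRflox libraries 1 to 5 and 142, 189.6, 157, 161 and 165 CPM in GRMAC libraries 1 to 5. GRflox held both extremes, in libraries 5 and 4, and all 5 GRMAC values lay between them. Means were 159.7 ± 28.6 CPM in GRflox and 163 ± 17.3 CPM in GRMAC, and the log2 fold change of 0.03 ± 0.11 (SE; edgeR, adjusted p = 0.9295) turned to −0.05 without GRflox 4. Eif2ak4 (NM_013719, chromosome 2, 118388617 to 118475234), which encodes the amino acid sensor kinase GCN2, was at 18.03, 17.6, 17.04, 17.01 and 14.8 CPM in GRflox libraries 1 to 5 and 20.3, 16.5, 17.1, 20.8 and 19.95 CPM in GRMAC libraries 1 to 5. Its 3 highest values were in GRMAC and its lowest in GRflox 5. The log2 fold change of 0.16 ± 0.08 (SE; edgeR, adjusted p = 0.346) did not pass.

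Creb3l3 (NM_145365, chromosome 10, 81084333 to 81098872) encodes CREBH, a liver transcription factor of the ER membrane that is activated by cleavage and acts on lipid metabolism in fasting. Its values were 618, 586, 546, 530.2 and 632 CPM in GRflox libraries 1 to 5 and 482, 547, 455, 474 and 548 CPM in GRMAC libraries 1 to 5. The 3 lowest values were in GRMAC, while GRMAC 2 and 5 lay above GRflox 3 and 4. The mean was 583 ± 44.1 CPM in GRflox and 501 ± 43.5 CPM in GRMAC (SD, n = 5 each), and the log2 fold change of −0.22 ± 0.08 (SE; edgeR, adjusted p = 0.1895) had an unadjusted p of 0.0132. The authors' deposited table gives it −0.22 and an adjusted p of 0.0964. The other members of the group were Creb3l2, a relative of Creb3l3 (log2 fold change 0.16), and the phosphatase subunits that remove phosphate from eIF2, Ppp1r15a (−0.06) and Ppp1r15b (−0.03). Creb3l2 ranged from 9.25 to 14.2 CPM in GRflox and 10.3 to 16.7 CPM in GRMAC. Ppp1r15a ranged from 13.5 to 18.3 CPM and 13.1 to 19.0 CPM, and Ppp1r15b from 145.2 to 169.4 CPM and 146.9 to 167.4 CPM.

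The ER chaperones and folding enzymes had negative log2 fold changes for 13 of 14, with a median of −0.18, and 0 of 14 passed with edgeR (lowest adjusted p = 0.381, Dnajb9), with DESeq2 or with limma-voom, nor did any have an unadjusted p below 0.05. Their direction depended on which GRflox libraries were used. Without GRflox 5, 7 were positive and 7 negative with a median of −0.01, and without GRflox 4 all 14 were negative with a median of −0.30. With both left out, all 14 were negative with a median of −0.16, and again 0 passed. The SD of log2 CPM was larger in GRflox than in GRMAC for 14 of 14 (median 0.409 against 0.257), whereas over all genes the medians were 0.142 and 0.156. The SD was larger in GRflox for 9 of 14 without GRflox 5, for 7 of 14 without GRflox 4 and for 0 of 14 without both (median 0.117 against 0.257; all genes 0.121 against 0.156). GRflox 4 and 5 were left out as the extremes of GRflox for the chaperones, while GRMAC kept its own high and low libraries. The fall of the SD in GRflox was thus largely built in, and these counts do not compare the spread of the genotypes. In a whole-liver sample, fewer cells of a type and less RNA per cell cannot be told apart.

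Hspa5 (NM_022310, chromosome 2, 34772090 to 34776529) encodes BiP, the main Hsp70 chaperone of the ER lumen, which also holds the 3 sensors inactive. Its values were 659, 553, 555, 328 and 1141 CPM in GRflox libraries 1 to 5 and 367, 645, 545, 384 and 575 CPM in GRMAC libraries 1 to 5. GRflox 5 was 3.47 times GRflox 4, and all 5 GRMAC values lay between those libraries. The mean was 647 ± 301 CPM in GRflox and 503 ± 122 CPM in GRMAC (SD, n = 5 each), a log2 fold change of −0.36 ± 0.31 (SE; edgeR, adjusted p = 0.615). That value was −0.06 without GRflox 5 and −0.23 without GRflox 4 and 5. Creld2 (NM_029720, chromosome 15, 88819646 to 88826681), a secreted and ER-resident protein induced in ER stress, was at 47.5, 43.7, 45.4, 21.3 and 72.2 CPM in GRflox libraries 1 to 5 and 25.8, 43.03, 38.7, 23.7 and 36.2 CPM in GRMAC libraries 1 to 5. GRflox 5 was again the highest and GRflox 4 the lowest, and the other 3 GRflox values were above all 5 in GRMAC. Without GRflox 4 the genotypes did not overlap at Creld2, as at 7.05% of all genes tested under that setting. The log2 fold change of −0.46 ± 0.30 (SE; edgeR, adjusted p = 0.495) rests on means of 46.01 ± 18.1 CPM in GRflox and 33.5 ± 8.38 CPM in GRMAC, and was −0.24 without GRflox 5 and −0.44 without GRflox 4 and 5.

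Dnajb9 (NM_013760, chromosome 12, 44205897 to 44210068), also called ERdj4, is an Hsp40 cochaperone of BiP that represses IRE1. It was at 76.01, 65.1, 75.5, 63.6 and 89.3 CPM in GRflox libraries 1 to 5 and 59.8, 70.8, 69.96, 54.1 and 70.01 CPM in GRMAC libraries 1 to 5. The 2 lowest values were in GRMAC, but the ranges overlapped. The log2 fold change of −0.19 ± 0.10 (SE; edgeR, adjusted p = 0.381) did not pass, and it was −0.11 without GRflox 5. Pdia4 (NM_009787, chromosome 6, 47796141 to 47813512), a protein disulfide isomerase, was at 139, 144, 124, 96.6 and 246 CPM in GRflox libraries 1 to 5 and 101, 157, 128, 100.2 and 116 CPM in GRMAC libraries 1 to 5. GRflox 5 stood above all others and the remaining 9 values lay within 96.6 to 157 CPM. Its log2 fold change of −0.31 ± 0.24 (SE; edgeR, adjusted p = 0.563) did not pass either, and it was −0.06 without GRflox 5 and −0.17 without GRflox 4 and 5.

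Sdf2l1, a partner of BiP and of the Hsp40 Dnajb11, had the widest range of the group, with 8.66, 9.10, 8.67, 3.23 and 22.5 CPM in GRflox libraries 1 to 5 and 3.66, 12.4, 8.41, 2.50 and 6.83 CPM in GRMAC libraries 1 to 5. GRflox 5 was 6.96 times GRflox 4, and GRMAC 2 was 4.95 times GRMAC 4. Its log2 fold change was −0.63 ± 0.56 (SE; edgeR, adjusted p = 0.632). Single libraries moved this value to −0.13 (without GRflox 5), −0.41 (without GRMAC 4) or −0.96 (without GRMAC 2), and it was −0.38 without GRflox 4 and 5. Manf, a secreted neurotrophic factor that stabilises BiP-client complexes, differed by 4.61 times between GRflox 5 and GRflox 4, with a log2 fold change of −0.33 ± 0.40 that turned to 0.02 without GRflox 5 and was −0.20 without GRflox 4 and 5. Hyou1, an Hsp110-type nucleotide exchange factor for BiP, differed by 2.83 times between the same libraries, and Hsp90b1, the ER form of Hsp90 (GRP94), by 2.24 times. Their log2 fold changes were −0.29 ± 0.30 and −0.18 ± 0.18, or −0.03 and 0.01 without GRflox 5 and −0.17 and −0.10 without GRflox 4 and 5.

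The remaining chaperones had small differences between the genotypes. Dnajb11, an Hsp40 of BiP, had a log2 fold change of −0.18 (−0.04 without GRflox 5), with 43.6 to 91.3 CPM in GRflox and 49.6 to 66.7 CPM in GRMAC. The disulfide isomerases Pdia3 and Pdia6 were at −0.06 and −0.04. Calreticulin (Calr) and calnexin (Canx), the lectin chaperones of glycoproteins, were at −0.05 and 0.005. Dnajc3, which encodes p58IPK, a BiP cochaperone once described as an inhibitor of PERK, was at −0.01. The directions of Pdia3, Pdia6, Calr, Canx and Dnajc3 changed on leaving out single libraries, and the lowest of their adjusted p-values in edgeR was 0.885 (Pdia3).

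**Figure D4:**
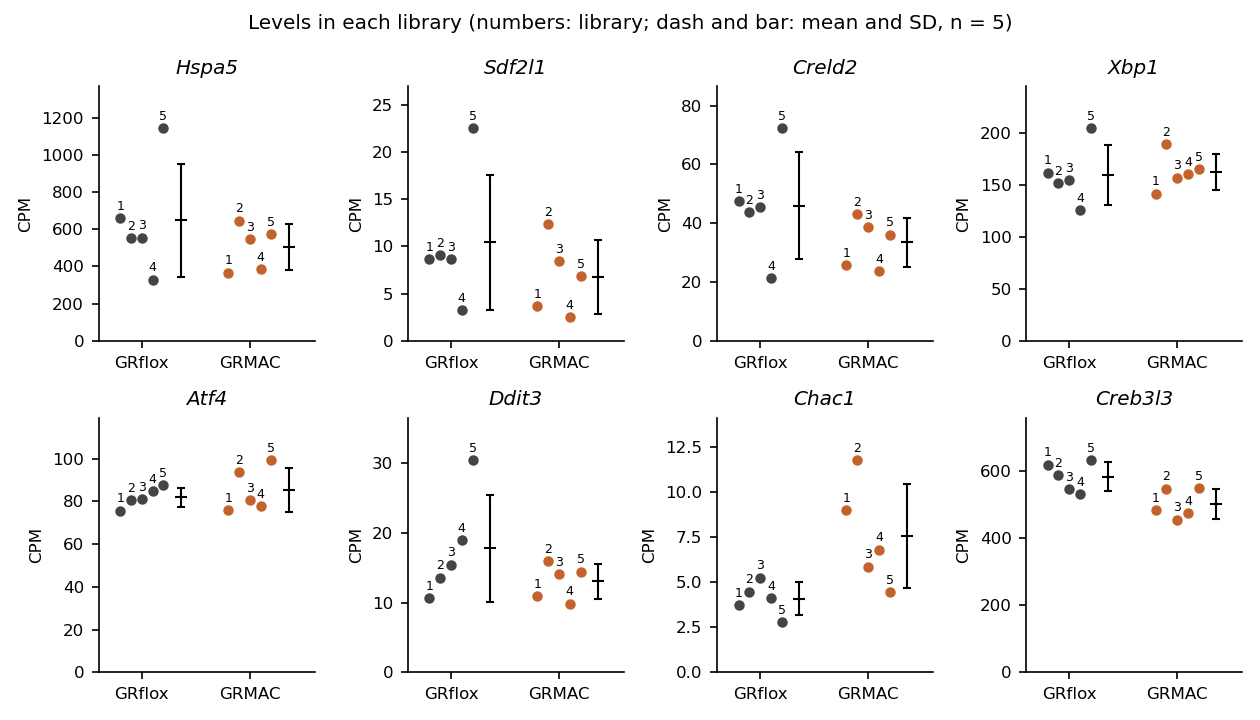
CPM in each library for 8 of the genes, with the library number beside each point and the mean ± SD (n = 5) beside each group; axes start at 0. GRflox 5 is highest for Hspa5, Sdf2l1 and Creld2 and lowest for Chac1, and Atf4 lies at 75.6 to 99.3 CPM.

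All 4 genes of ER-associated degradation had their highest GRflox value in GRflox 5. Syvn1 (NM_028769, chromosome 19, 6046576 to 6053718) encodes HRD1, the ubiquitin ligase of the ER membrane that acts on misfolded proteins. It was at 83.97, 79.1, 95.02, 68.9 and 134 CPM in GRflox libraries 1 to 5 and 62.6, 75.9, 69.5, 64.9 and 84.5 CPM in GRMAC libraries 1 to 5. GRflox 5 was the highest, and GRMAC 1, 4 and 3 were 3 of the 4 lowest along with GRflox 4. Means were 92.2 ± 25.2 CPM in GRflox and 71.5 ± 8.84 CPM in GRMAC (SD, n = 5 each), and the log2 fold change of −0.37 ± 0.17 (SE; edgeR, adjusted p = 0.306) had an unadjusted p of 0.0498. Without GRflox 5 it was −0.19, with an unadjusted p of 0.0858, and without any 1 of GRMAC 1 to 4 the unadjusted p was 0.0728 to 0.107. That p was 0.0541 without GRflox 1, 0.0873 without GRflox 3, 0.0409 without GRflox 2 and 0.0331 without GRMAC 5. The log2 fold change of Syvn1 was −0.46 without GRflox 4 (edgeR, unadjusted p = 0.0135). Without GRflox 4 and 5 it was −0.27 (edgeR, unadjusted p = 0.0204, adjusted p = 0.296). Sel1l, the adaptor of HRD1, was at 231 CPM in GRflox 5 and 146.4 to 167.3 CPM in the other 4 GRflox libraries, and at 146.1 to 176.8 CPM in GRMAC. The log2 fold change of −0.10 turned to 0.03 without GRflox 5 and was −0.01 without GRflox 4 and 5. Herpud1, a membrane protein of the same complex, lay between 424.5 and 688 CPM in GRflox and between 291.5 and 749 CPM in GRMAC (−0.20 ± 0.24), with both extremes in GRMAC. Its log2 fold change was −0.41 without GRMAC 3 and −0.06 without GRMAC 4. Edem1, which directs misfolded glycoproteins to degradation, ranged from 142.3 to 161.7 CPM and from 132.5 to 167.4 CPM (0.04 ± 0.07). The median of the 4 genes was −0.15, and −0.04 without GRflox 5. With edgeR, DESeq2 and limma-voom, 0 of the 4 passed.

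In the ATF4 branch 4 of 11 genes had a positive and 7 a negative log2 fold change, with a median of −0.19, and Chac1 had the highest value of the 38 tested genes. With edgeR and limma-voom 0 of 11 passed, and with DESeq2 Chac1 did. With GRflox 4 and GRflox 5 left out, 12 genes of the branch passed the filter and their median was −0.06.

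Chac1 (NM_026929, chromosome 2, 119351242 to 119354327) encodes an enzyme that breaks down glutathione and is a known target of ATF4 and CHOP. It was at 3.75, 4.48, 5.25, 4.13 and 2.77 CPM in GRflox libraries 1 to 5 and 9.01, 11.8, 5.87, 6.8 and 4.44 CPM in GRMAC libraries 1 to 5. GRMAC 5 lay within the GRflox range, below GRflox 2 and 3, and the other 4 GRMAC values were above all 5 in GRflox. GRflox 5, the highest library for most chaperones, held the least Chac1. The mean was 4.07 ± 0.916 CPM in GRflox and 7.58 ± 2.87 CPM in GRMAC (SD, n = 5 each), a log2 fold change of 0.90 ± 0.25 (SE; edgeR, adjusted p = 0.131), with an unadjusted p of 0.00417. Over 19 alternatives the log2 fold change ranged from 0.68 (without GRMAC 2) to 1.04 (without GRMAC 5), and the adjusted p from 0.014 (DESeq2) to 0.328 (GRflox 4 and 5 left out). In counts, the libraries held 75 to 306 reads of the gene.

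Atf4 (NM_009716, chromosome 15, 80255184 to 80257545), the transcription factor at the head of the branch, was at 75.6, 80.7, 81.2, 84.7 and 87.5 CPM in GRflox libraries 1 to 5 and 75.97, 93.5, 80.4, 77.8 and 99.3 CPM in GRMAC libraries 1 to 5. The values overlapped throughout, and GRflox 5 was 1.03 times GRflox 4. Means of 81.9 ± 4.499 CPM in GRflox and 85.4 ± 10.4 CPM in GRMAC gave a log2 fold change of 0.06 ± 0.08 (SE; edgeR, adjusted p = 0.749). Since ATF4 is controlled mainly in translation, this message level does not give the amount of the protein. Ddit3 (NM_007837, chromosome 10, 127290793 to 127296288) encodes CHOP, which acts in cell death after long ER stress. The last 68 bases of its span overlap Mars on the other strand, and without a known strand setting reads there cannot be told apart. The values of Ddit3 were 10.7, 13.6, 15.5, 18.96 and 30.5 CPM in GRflox libraries 1 to 5 and 10.95, 15.9, 14.1, 9.87 and 14.5 CPM in GRMAC libraries 1 to 5. GRflox 5 was far above the rest, and the other 9 values lay between 9.87 and 19.0 CPM. The mean was 17.8 ± 7.69 CPM in GRflox and 13.1 ± 2.55 CPM in GRMAC, with a log2 fold change of −0.45 ± 0.27 (SE; edgeR, adjusted p = 0.445). That value was −0.17 without GRflox 5 and −0.02 without GRflox 4 and 5.

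Atf5 (NM_030693, chromosome 7, 44812256 to 44815658), a liver-enriched transcription factor of the same stress response, was at 638, 594, 729, 561 and 787 CPM in GRflox libraries 1 to 5 and 619, 489, 573, 699.5 and 579 CPM in GRMAC libraries 1 to 5. GRflox 5 was highest and GRMAC 2 lowest, and the log2 fold change of −0.16 ± 0.11 (SE; edgeR, adjusted p = 0.486) did not pass. It was −0.09 without GRflox 5 and −0.10 without GRMAC 2. Sesn2 (NM_144907, chromosome 4, 132492807 to 132510456) encodes sestrin 2, a leucine sensor that restrains mTORC1. It was at 29.5, 23.2, 19.7, 21.96 and 15.5 CPM in GRflox libraries 1 to 5 and 21.9, 14.9, 23.97, 15.4 and 12.6 CPM in GRMAC libraries 1 to 5. In this gene GRflox 5 was the lowest of its genotype and GRflox 1 the highest of all, so the order of the libraries was not that of the chaperones. The log2 fold change of −0.31 ± 0.21 (SE; edgeR, adjusted p = 0.497) did not pass, and it was −0.18 without GRflox 1.

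Genes of serine and one-carbon metabolism did not pass in edgeR either. Shmt2 (NM_028230, chromosome 10, 127517123 to 127522444), the mitochondrial serine hydroxymethyltransferase, was at 168, 163, 172, 190.3 and 195 CPM in GRflox libraries 1 to 5 and 152, 168, 149, 148 and 161 CPM in GRMAC libraries 1 to 5. Of the 5 GRMAC values, 4 were below all 5 in GRflox, and GRMAC 2 was above GRflox 1 and 2. The mean was 178 ± 14.1 CPM in GRflox and 156 ± 8.795 CPM in GRMAC (SD, n = 5 each), and the log2 fold change of −0.19 ± 0.07 (SE; edgeR, adjusted p = 0.183) had an unadjusted p of 0.0122. Without GRflox 4 and 5 it was −0.11, with an unadjusted p of 0.125. Mthfd2 (NM_008638, chromosome 6, 83305704 to 83317604), the next enzyme of the mitochondrial folate pathway, was at 1.6, 1.54, 1.14, 0.826 and 1.29 CPM in GRflox libraries 1 to 5 and 0.819, 1.08, 0.794, 1.08 and 0.987 CPM in GRMAC libraries 1 to 5. GRflox 4 lay among the GRMAC values, and the other 4 GRflox libraries were above all of GRMAC. These values are 19 to 41 counts a library, and the log2 fold change of −0.42 ± 0.22 (SE; edgeR, adjusted p = 0.347) did not pass.

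Psat1, of serine synthesis, was at 0.602 to 1.29 CPM in GRflox and 0.538 to 1.001 CPM in GRMAC (log2 fold change −0.26 ± 0.26). Phgdh, which encodes the first enzyme of that pathway, had 2 to 12 counts a library, and Asns, asparagine synthetase, had 3 to 14, so neither was tested. In a library 3 counts correspond to 0.111 to 0.129 CPM. Trib3, a pseudokinase that ATF4 and CHOP induce, was at 5.97 to 10.2 CPM and 6.99 to 9.01 CPM (0.01 ± 0.13). Atf3, a transcription factor of acute stress, lay between 2.97 and 5.68 CPM in GRflox and between 1.51 and 5.92 CPM in GRMAC (−0.27 ± 0.37), and leaving out single libraries gave −0.62 to −0.09. Nupr1, a small chromatin protein induced by stress, was at 0.702 to 1.09 CPM and 0.794 to 1.77 CPM (0.30 ± 0.25, or 0.085 without GRMAC 2).

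Set per kilobase of exon, the levels of the 40 genes differed widely. Averaged over the 10 libraries, Atf5 was the most abundant message at 361 CPM per kb, followed by Herpud1 at 267, Creb3l3 at 236, Hspa5 at 220.1 and Hsp90b1 at 209.9. Atf4 was at 48.5 CPM per kb, and the sensor genes Atf6, Ern1, Eif2ak3 and Eif2ak4 were at 14.4, 7.08, 4.34 and 3.44. The lowest were Phgdh at 0.136, Asns at 0.143, Psat1 at 0.348 and Mthfd2 at 0.535 CPM per kb. Genes of the serine and asparagine synthesis arm were thus at the bottom of the order while the transcription factor genes Atf5 and Creb3l3 were near its top.

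Genes of the same pathways outside the 40 were counted in the same fit. Of 35 further genes under ATF4 or in amino acid supply, 33 were tested, 11 were positive and 22 negative, and the median log2 fold change was −0.05. With edgeR and limma-voom 0 passed, and 1 passed with DESeq2 (Gadd45a), against 3.63% of all genes. At an unadjusted p below 0.05 in edgeR, 3 were higher (Gadd45a, Aldh18a1 and Slc7a5), against 8.58% of all genes tested. At the same threshold 5 were lower (Psph, Jdp2, Ddit4, Vldlr and Cebpb), against 7.75% of all genes. Gadd45a, a growth arrest gene, rose in DESeq2 and was at 0.3902, 0.827, 0.571, 1.35 and 0.812 CPM in GRflox libraries 1 to 5 and 2.198, 1.93, 1.91, 1.498 and 1.48 CPM in GRMAC libraries 1 to 5. Every GRMAC library was above every GRflox library, where 4.05% of all genes tested did not overlap in either direction. Its log2 fold change was 1.18 ± 0.27 (SE; edgeR, adjusted p = 0.0756), on 10 to 51 counts a library. Gadd45a reached the threshold in edgeR without GRflox 4, the library with its highest GRflox value. Without GRflox 5, and without both GRflox 4 and 5, 0 genes of this list passed in edgeR. Psph, the last enzyme of serine synthesis, had a log2 fold change of −0.40 ± 0.13 (edgeR, adjusted p = 0.1603), and Aldh18a1, of proline synthesis, 0.58 ± 0.20 (edgeR, adjusted p = 0.1797).

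Of 46 tested genes of ER translocation, folding and degradation outside the 40, 31 were positive and 15 negative, with a median of 0.05. With edgeR, DESeq2 and limma-voom 0 passed. In edgeR 0 were higher and 2 lower at an unadjusted p below 0.05, against 8.58% and 7.75% of all genes tested. The 3 with the lowest p were the ubiquitin-conjugating enzyme Ube2g2 (−0.22 ± 0.08; edgeR, adjusted p = 0.204), the BiP-modifying enzyme Ficd (−0.22 ± 0.09; adjusted p = 0.24) and Stt3a, a catalytic subunit of oligosaccharyltransferase (0.14 ± 0.07; adjusted p = 0.3099). The library pattern was weaker there: GRflox 5 was highest of its genotype for 15 of 46 and GRflox 4 lowest for 24 of 46, with a median log2 ratio between them of 0.153. Of 22 further sensors and eIF2 genes, 5 were positive and 17 negative (median −0.07), and 0 passed with the same 3 tools. At an unadjusted p below 0.05 in edgeR, 3 were lower, against 7.75% of all genes tested. They were led by the eIF2B subunit gene Eif2b4 (−0.28 ± 0.08; edgeR, adjusted p = 0.137), by Impact, an inhibitor of GCN2 activation (−0.31 ± 0.10; adjusted p = 0.175), and by the transcription factor Creb3 (−0.19 ± 0.07; adjusted p = 0.1895).

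Heat shock genes, most of them of the cytosol, varied with the chaperones in GRflox. Of 18 such genes, 16 were highest of their genotype in GRflox 5 and 14 lowest in GRflox 4, with a median log2 ratio between these libraries of 0.894. In GRMAC the ratio of library 2 to library 4 was −0.041 for the heat shock genes, where that of the ER chaperones was 0.652. Between the genotypes, log2 fold changes were negative for 16 of the 18, and their median was −0.44. With edgeR and limma-voom 0 passed. At an unadjusted p below 0.05 in edgeR 14 were lower, against 7.75% of all genes tested. With DESeq2 9 passed as lower, against 3.63% of all genes in either direction. The genotypes did not overlap for 4, against 4.05% of all genes tested in either direction. These were Hspa1b, Dnaja1, Hsf1 and Dnajb1, named after their values were seen. Hspa1b has a near-identical copy, Hspa1a, so its counts are uncertain. The median of the 18 heat shock genes was −0.31 without GRflox 5, −0.54 without GRflox 4 and −0.39 without GRflox 4 and 5. Hspe1 passed as lower with edgeR without GRflox 4, and Hsph1 did so without GRflox 4 and 5. Plasma cells are rich in ER chaperones, and 8 of their markers summed to 491.4 CPM in GRflox 5 and 440 CPM in GRflox 4, within 437.5 to 493.2 CPM in GRflox and 367.7 to 443.7 CPM in GRMAC. Most of this sum was Sdc1 (482 and 436 CPM in GRflox 5 and 4), which hepatocytes also express. Derl3, which is also a gene of ER-associated degradation, was at 7.79 and 0.976 CPM, and the other 6 markers summed to 1.81 and 2.78 CPM, within 1.81 to 2.84 CPM over all 10 libraries. Of 8 markers of pancreatic acinar cells, which also have much ER, Cpa1, Cpb1, Prss2, Pnlip and Amy2a5 were at 0 in all libraries, and the sum of all 8 was 5.46 to 8.06 CPM. The part of the heat shock genes, the plasma cell markers and GC content in the differences between libraries was not tested.

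Hspa5 was chosen, after its values had been seen, as a gauge for how the other 37 tested genes moved over the 10 libraries. On log2 CPM, 11 of the 13 other chaperones had a Pearson correlation with Hspa5 of at least 0.8, with a median of 0.946. The share of all 12557 other genes that reached 0.8 was 0.534% (67 genes), and their median was −0.012. Of the other groups, 2 of 4 genes of ER-associated degradation reached 0.8 (Sel1l, r = 0.928, and Syvn1, r = 0.880), as did 1 of 9 sensors and regulators (Xbp1, r = 0.870) and 0 of 11 genes of the ATF4 branch (median 0.339). These correlations pool both genotypes, since 5 libraries are too few for a correlation within each. They were tested by permuting Hspa5 over the libraries 100000 times, two-sided, with p adjusted over all 12557 genes. At this number of permutations genes at the smallest p pass only if at least 3 share it or enough others come close to it. The smallest p was reached by 2 genes, and 0 genes passed. With p limited in this way, that result does not show that correlations are absent.

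Hsp90b1 had the highest correlation, r = 0.976 (permutation test, p = 1e-05, the smallest these permutations can give; adjusted p = 0.0628) and Spearman's rho = 0.952 (p = 9e-05; adjusted p = 0.565). Dnajb11 followed with r = 0.974 (permutation test, p = 4e-05; adjusted p = 0.126) and rho = 0.855 (p = 0.00277; adjusted p = 0.835). The lowest chaperones were Pdia6 (r = 0.695, rho = 0.636) and Dnajc3 (r = 0.690, rho = 0.552), with permutation p = 0.0217 and p = 0.0282 for r, and both promoters hold the ER stress element. Without GRflox 5 and GRflox 4, the libraries farthest from the median of Hspa5, 8 of the 13 chaperones had r of at least 0.8 and the chaperone median was 0.881. The share of all genes that reached 0.8 without these libraries was not counted. In those 8 libraries r was 0.604 for Xbp1 and 0.738 for Syvn1. Leaving out the libraries farthest from the median of Hspa5 narrows its range, which by itself can lower r.

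In the sensors, r ran from −0.663 for Eif2ak4 (permutation test, p = 0.0384; adjusted over all genes it did not pass) to 0.870 for Xbp1. Atf6 had r = 0.366 and Ern1 r = −0.015. In the ATF4 branch, Psat1 had the highest r (0.617, rho = 0.794) and Chac1 the lowest (−0.427, rho = −0.394). Atf4 itself had r = 0.339. Ddit3, which was also highest in GRflox 5, had r = 0.587 but rho = 0.261. For Atf5, r turned from 0.330 to −0.429 without GRflox 4 and 5.

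**Figure D5:**
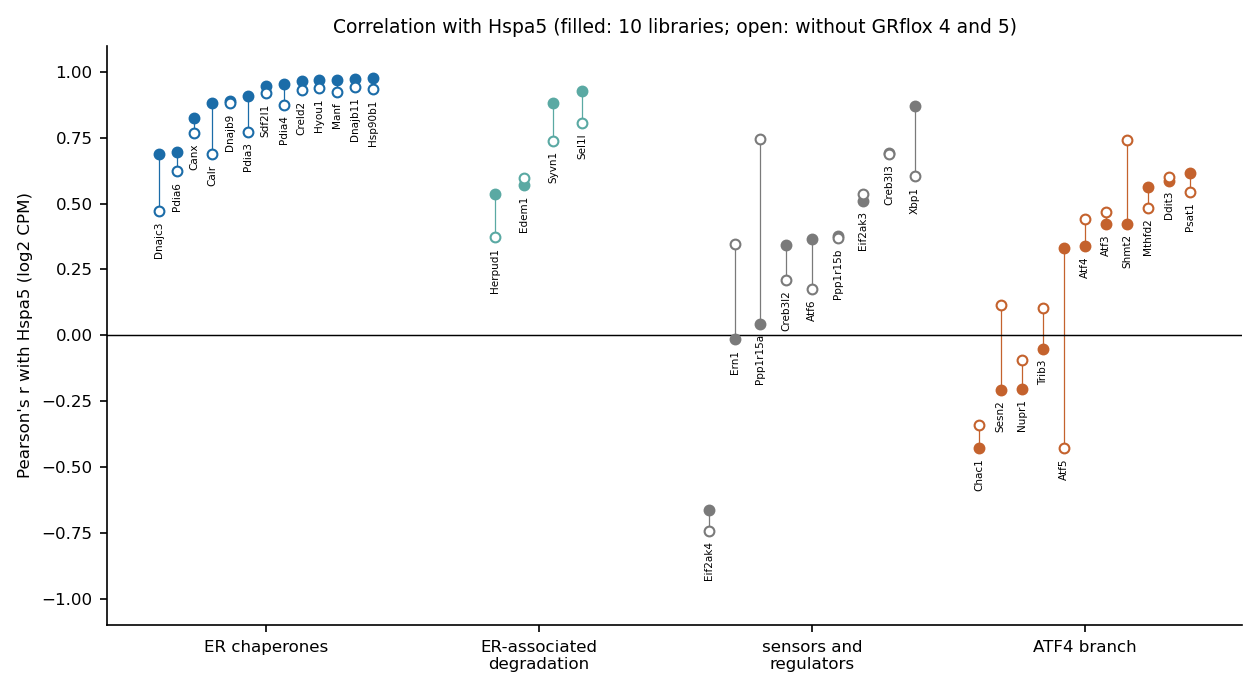
Pearson correlation of log2 CPM of each gene with Hspa5, by role, over all 10 libraries (filled) and over 8 without GRflox 4 and GRflox 5 (open). Chaperones lie at 0.690 to 0.976 over 10 libraries, and the ATF4 branch at −0.427 to 0.617.

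The promoter letters and the correlation can be set side by side. Of the 32 promoters with either ER stress element, 10 belonged to the 40 genes and 22 to others, of which 11 were tested. These 11 had a median r with Hspa5 of 0.603, from −0.095 to 0.898, and 2 reached 0.8: Derl3, of ER-associated degradation (0.898), and Hnrnpa3, of RNA binding (0.864), both named after their values were seen. Among the 9 of the 40 genes with an element other than Hspa5, 6 reached 0.8 (Calr, Canx, Creld2, Dnajb11, Hsp90b1 and Syvn1, of which the elements of 3 are printed above), and Pdia6, Dnajc3 and Herpud1 did not. Of the 67 genes at 0.8 or more, 14 were among the 40 genes, 1 was a further ER folding gene (Derl3), 1 a cytosolic heat shock gene (Dnaja1), and 51 were in none of the lists used here.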

How the data were processed

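Polyadenylated RNA of whole liver was sequenced in pairs of reads, in 10 libraries, per the labels' protocols. The authors deposited a table of whole read counts per gene, with 1 RefSeq transcript a row. Per the submitters' processing notes, HISAT2 2.1.0, DESeq2 1.24.0 and the build mm10 were used, and the counting program, the annotation, the strand setting and any counting of introns are not given in the sources used here. A second deposited table gives the authors' log2 fold changes and adjusted p-values, per the file headers, and 10 of its columns were not used. Columns were matched to samples by genotype and number. Coordinates are those of the count table, with the first base counted as 1. The ends of 5 of the 40 genes (Shmt2, Syvn1, Ddit3, Ppp1r15a and Pdia6) overlap a gene on the other strand by 11 to 89 bases, where reads cannot be told apart.

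With edgeR 4.0.16 (R 4.3.3), filterByExpr left 12558 genes and removed 0.0348% of the counts. TMM scaled the libraries, and GRMAC was compared with GRflox by the quasi-likelihood test with robust estimation, adjusted by Benjamini-Hochberg over all genes tested. SDs of log2 CPM and correlations used an offset of 0.1 CPM. Alternatives were DESeq2 1.42.0, limma-voom (limma 3.58.1), other scaling, no filter, no robust estimation, the replicate number as a block, offsets for GC content and exonic length (splines with 5 degrees of freedom), and leaving out each library. Leaving out GRflox 4 and 5 together and the comparison with Hspa5 were added after seeing the data. The scripts were tested on simulated data. The genes and lists were chosen with earlier results of these data known. All 40 genes are named. Values in every library are given for the 12 with the lowest p and for 6 chosen heads of the pathways, and, chosen after their values were seen, for Sdf2l1 and Gadd45a, and beyond the 40 genes the 3 with the lowest p of each pathway list are named. Exonic length and GC content came from GENCODE M21 transcripts, and promoters from RefSeq (GRCm38.p6).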

Additional observations from a re-analysis of the deposited data

Results flagged for a closer look

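Sel1l, the adaptor of the HRD1 ubiquitin ligase, was at 231 CPM in GRflox 5 and at 146.4 to 167.3 CPM in the other 4 GRflox libraries, which sets GRflox 5 apart from its group by Dixon's criterion. Of the 76 groups of values examined (38 genes in 2 genotypes), 1 was set apart in this way, where chance gives about 1 in 20. GRflox 5 was also the highest GRflox library for 12 of 14 ER chaperones and for 4 of 4 genes of ER-associated degradation.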

How the results depend on the processing

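The number of genes past the threshold of the 12558 tested was 22, and it changed to 34 with no filter on low counts, 447 with DESeq2, 8 with limma-voom, 8 without robust estimation, 9 with the GC and length correction and 4 without GRflox 4 and GRflox 5, while leaving out single libraries gave 5 to 47. Of the 38 stress response genes tested, 1 passed with DESeq2 (Chac1) and 0 under the other alternatives. The number whose genotypes did not overlap was 0 to 2 on leaving out single libraries (Mthfd2 and Creld2 without GRflox 4, Shmt2 without GRMAC 2, Chac1 without GRMAC 5), where 7.05%, 6.25% and 6.09% of all genes did not overlap, and 2 without GRflox 4 and 5 (Mthfd2 and Creld2), where 9.13% did not. The ATF4 branch median moved from −0.19 to −0.064 without GRflox 4 and 5, where 12 and not 11 genes passed the filter. With the replicate number as a block 81 genes passed, 20 of them among the 22, and 76 with the block and the GC correction together, but 0 of the 38 genes (Chac1, adjusted p = 0.0627 and 0.053 with edgeR). The labels do not say that the numbers pair the libraries. The correlations of same-numbered deviations were 0.04, 0.173, 0.148, −0.108 and 0.054, which cannot exclude a pairing.

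Directions that turned were those of values near 0 or resting on GRflox 5. The GC correction gave −0.025 for Atf6, −0.011 for Edem1 and −0.075 for Canx, and with the block −0.025, −0.016 and −0.074. Without GRflox 4 and 5, Canx was −0.004 and Ppp1r15b 0.018. Leaving out single libraries gave −0.295 to 0.01 for Hsp90b1, −0.152 to 0.027 for Sel1l, −0.531 to 0.019 for Manf, −0.143 to 0.004 for Ppp1r15a, −0.165 to 0.069 for Pdia3, −0.166 to 0.097 for Calr, −0.046 to 0.134 for Xbp1, −0.172 to 0.062 for Pdia6, −0.087 to 0.042 for Dnajc3, −0.072 to 0.119 for Trib3 and −0.06 to 0.064 for Canx. The cause was not tested. Depth limits Asns, Phgdh, Psat1, Nupr1 and Mthfd2, with at most 46 counts a library.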
